A study of Mus musculus with 39 samples.

Results

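A set of 7 genes that mark homeostatic microglia was followed, all of which encode proteins of the cell surface or secreted proteins: Tmem119, Siglech, Gpr34, Fcrls, Slc2a5, Olfml3 and Sparc. Each was found by its symbol through the GENCODE M21 annotation, and all 7 had 1 row among the 55487 gene identifiers of the count table. All 7 also passed the filter on low counts, which kept 13420 genes for testing. The cells were striatal microglia of male mice 8 to 10 weeks old, sorted alive for CD11b, P2RY12 and low CD45, and their RNA was sequenced. Cells were taken 18 hours after lipopolysaccharide (LPS, a bacterial cell wall component, 4500 endotoxin units per gram of body weight) was injected into the peritoneum, or after saline. A group name gives the prenatal term (MIA, maternal immune activation, or CON), then PLX or CON, then LPS or SAL. What PLX stands for is not defined in the labels, which give no strain or genotype. The groups were MIA_PLX_LPS with 6 libraries and MIA_PLX_SAL with 3, CON_PLX_LPS with 6 and CON_PLX_SAL with 4, MIA_CON_LPS with 6 and MIA_CON_SAL with 4, and CON_CON_LPS with 4 and CON_CON_SAL with 4. An arm is written below as the prenatal and second terms, so that MIA:PLX holds MIA_PLX_LPS and MIA_PLX_SAL. Another 2 libraries, CON_CON_LPS replicate 3 and MIA_PLX_SAL replicate 1, carry a request for exclusion in their titles and were left out of all comparisons unless stated.

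Microglia of the healthy brain carry a set of genes that depends on signals from brain tissue, among them transforming growth factor beta, and that is known to be reduced when the cells react to inflammatory stimuli. Products of this set on the cell surface sense lipids, nucleotides, sialylated ligands and sugars, and others are shed into the matrix. Tmem119 encodes a membrane protein widely used to tell microglia from other macrophages. Siglech encodes a member of the family of sialic acid binding lectins, Gpr34 a receptor for lysophosphatidylserine, and Fcrls a scavenger receptor related to Fc receptors. Slc2a5 encodes the fructose transporter GLUT5. Olfml3 encodes a secreted olfactomedin-like glycoprotein and Sparc a secreted matrix protein that binds collagen. Siglech is also known from plasmacytoid dendritic cells, Sparc from endothelial, mural and other glial cells, and Olfml3 from mural cells.

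Promoter sequence from RefSeq (GRCm38.p6) was at hand for 5 of the 7 genes, namely Siglech, Fcrls, Slc2a5, Olfml3 and Sparc, and 3 are shown here, Slc2a5 and Olfml3 for their low levels after LPS and Siglech because it held matches to 2 motifs. Each runs 5′ to 3′ on the gene's strand and ends where the GENCODE gene begins, and capitals mark motif matches. The first is at chr4:150119094-150119282 on the plus strand, the second at chr3:103738002-103738251 on the minus strand and the third at chr7:55767934-55768177 on the plus strand.
Slc2a5: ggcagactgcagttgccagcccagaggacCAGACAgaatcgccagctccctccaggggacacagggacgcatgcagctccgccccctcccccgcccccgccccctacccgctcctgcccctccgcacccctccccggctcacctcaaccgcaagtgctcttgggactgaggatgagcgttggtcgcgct
Olfml3: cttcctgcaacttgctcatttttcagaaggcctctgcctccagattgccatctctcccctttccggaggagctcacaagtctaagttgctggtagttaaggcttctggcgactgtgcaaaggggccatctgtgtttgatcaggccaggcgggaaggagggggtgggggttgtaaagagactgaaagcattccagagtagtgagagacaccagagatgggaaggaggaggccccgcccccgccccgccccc
Siglech: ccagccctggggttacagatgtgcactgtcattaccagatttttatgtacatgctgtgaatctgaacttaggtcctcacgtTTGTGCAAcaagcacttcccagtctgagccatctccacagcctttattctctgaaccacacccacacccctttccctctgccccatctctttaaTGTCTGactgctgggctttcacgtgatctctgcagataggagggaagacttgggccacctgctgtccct
Both strands of the 250 bases before each start were searched for 8 motifs: PU.1 as GAGGAAGT, PU.1-IRF as GGAANNGAA, MEF2 as TAAAAATA, SMAD as CAGACA, NF-kB as GGGANTTCC, ISRE as GAAANNGAA, AP-1 as TGANTCA and C/EBP as TTGCNNAA, where N is any base. The PU.1-IRF and ISRE patterns share letters and can match at 1 place. Each window searched ends at the RefSeq start, which can differ from the GENCODE start. The Sparc window (chr11:55420081-55420330) lay wholly inside the GENCODE gene. Most of the Fcrls window (chr3:87263525-87263774), with its SMAD match, also lay inside its gene. SMAD letters were found in the windows of Slc2a5, Siglech, Fcrls and Sparc, and in 17.1% of all 32851 promoters of the table. The C/EBP letters were found before Siglech, and in 9.56% of all promoters. No letters of the other 6 motifs were found in any of the 5 windows. Their shares over all promoters were 2.44% for PU.1, 6.99% for PU.1-IRF, 2.45% for MEF2, 1.43% for NF-kB, 7.13% for ISRE and 6.75% for AP-1. Olfml3 had none of the 8 in this window. A match describes letters and is not evidence of binding.

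The 37 libraries held 1510020 to 5746239 counts each. Mitochondrial ribosomal RNA took 6.14% to 19.3% of counts in LPS libraries and 9.70% to 13.7% in saline libraries. Transcripts of the sort markers were present throughout: Ptprc (CD45) averaged 471 to 646 CPM (counts scaled to the same library total) and Itgam (CD11b) 1249.8 to 1428 CPM in the 4 LPS groups, against 547 to 627 and 1469.9 to 1758 CPM in the 4 saline groups. P2ry12, which encodes the third sort marker, averaged 246 to 577 CPM in the LPS groups, against 2589.6 to 2905 CPM in the saline groups. One library stood apart from its group. MIA_CON_LPS replicate 6 had 1822 CPM of P2ry12, and its counts were closest to those of MIA_PLX_SAL replicate 1, whose title asks for exclusion. Chi-square per degree of freedom between these libraries was 1.53 over 11605 genes, the lowest of 741 pairs, and the next pair of libraries gave 2.42. Between replicate 6 and the other MIA_CON_LPS libraries it was 14.9 to 29.7. Results that rest on this library are given with and without it. In bulk RNA of sorted cells, fewer cells expressing a gene and less RNA of that gene per cell cannot be told apart.

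After LPS, 6 of the 7 genes were lower in each of the 4 arms, and the 7th, Sparc, passed the test with the arms averaged. Gpr34 and Slc2a5 fell the most: LPS group means were 4.68% to 16.9% of the saline mean of the arm for Gpr34 and 3.91% to 16.6% for Slc2a5. Those of Olfml3 were 10.0% to 29.2%, of Siglech 18.9% to 31.9%, of Tmem119 23.8% to 37.2% and of Fcrls 40.8% to 57.7%. The upper end of each of these ranges is that of MIA:CON, whose LPS mean includes MIA_CON_LPS replicate 6. Without this library the MIA_CON_LPS mean was 35.5 CPM for Gpr34, against 109.6 CPM with it, and 9.66 CPM for Slc2a5, against 25.8 CPM. The calls of lower genes are at an adjusted p under 0.05 by edgeR's quasi-likelihood test with Benjamini-Hochberg adjustment over all genes tested. Of all genes tested, 10.4% were called lower in MIA:PLX, 14.0% in CON:PLX, 10.9% in MIA:CON and 9.86% in CON:CON. Without MIA_CON_LPS replicate 6, whose counts stand apart from its group, the same 6 genes were called lower in MIA:CON, against 14.5% of all genes tested. With the arms averaged, all 7 genes were called lower, against 26.0% of all genes tested. DESeq2 gave no p for Gpr34 and Slc2a5 in any comparison, so each count by DESeq2 here covers the other 5 genes. It called 4 of these 5 lower in each arm and all 5 with the arms averaged. None of the 7 was called higher in any arm by edgeR or limma voom, nor any of the 5 by DESeq2, also at an unadjusted p under 0.05 by edgeR, while edgeR called 11.8%, 17.5%, 14.5% and 13.7% of all genes tested higher in MIA:PLX, CON:PLX, MIA:CON and CON:CON. The median log2 change over the 7 genes was -2.03 in MIA:PLX, -2.16 in CON:PLX, -1.48 in MIA:CON and -1.96 in CON:CON, and over all genes tested it was 0.04, 0.03, 0.03 and 0.06 in the same order of arms.

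**Figure D1:**
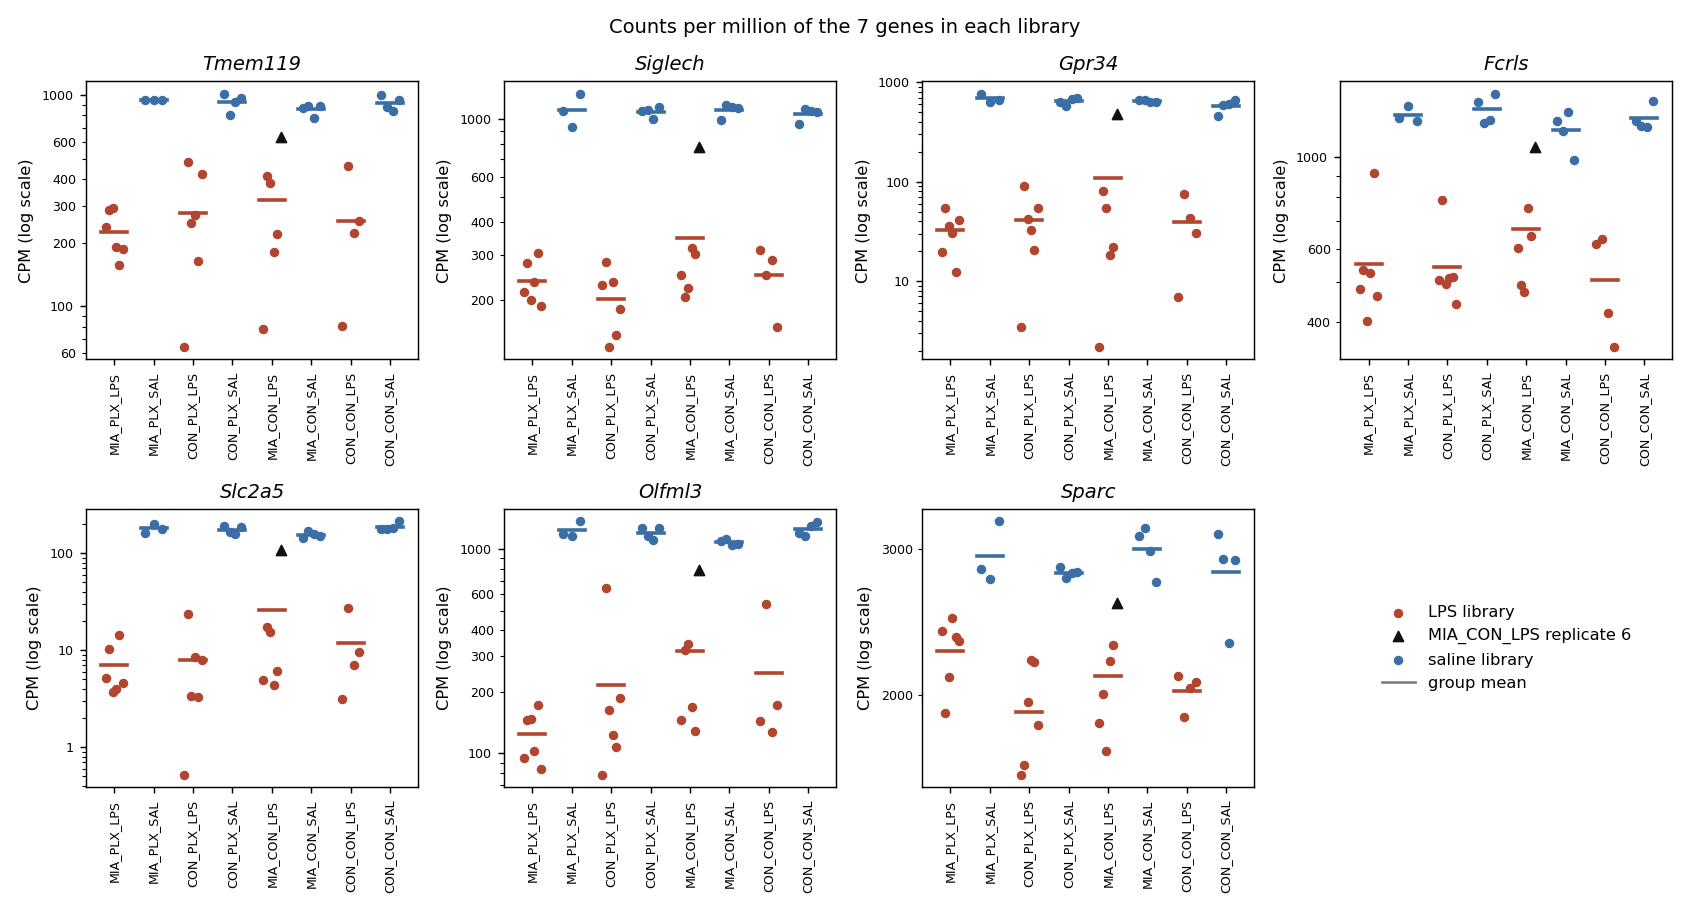
CPM of each gene in each library on a log axis, with the 8 groups along the x axis, LPS groups left of their saline groups, and a bar at each group mean. Apart from MIA_CON_LPS replicate 6 (black triangle), LPS libraries of Gpr34 lie at 91.0 CPM or below and saline libraries at 462 CPM or above.

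Gpr34 (chrX:13632089-13640858, plus strand, GRCm38) encodes the lysophosphatidylserine receptor and fell in every arm. Its transcript had a lowest value of 12.3, a median of 33.3 and a highest value of 54.4 CPM in the MIA_PLX_LPS libraries, against 636, 668 and 766 CPM in the MIA_PLX_SAL libraries. Gpr34 had a lowest value of 3.48, a median of 37.6 and a highest value of 91.0 CPM in the CON_PLX_LPS libraries, against 577, 631, 670.1 and 697 CPM in the CON_PLX_SAL libraries. In both PLX arms every LPS library lay far below every saline library. The share of all genes with such separation within an arm is not given, so it is not read as particular to Gpr34. Without PLX, Gpr34 had a lowest value of 2.18, a median of 38.3 and a highest value of 480.1 CPM in the MIA_CON_LPS libraries, against 626, 629, 665 and 668 CPM in the MIA_CON_SAL libraries. Prenatal CON without PLX gave 6.91, 30.3, 42.6 and 75.9 CPM in the CON_CON_LPS libraries, against 462, 589, 602 and 657 CPM in the CON_CON_SAL libraries. The highest MIA_CON_LPS value belongs to replicate 6, which lay below the saline libraries of its arm but within the range of all saline libraries, and the next highest in that group was 80.3 CPM. The lowest, 2.18 CPM in MIA_CON_LPS replicate 1, rests on 4 counts (exact 95% Poisson interval 0.593 to 5.57 CPM, counting error only). The log2 change was -4.32 ± 0.807 (SE) in MIA:PLX, -3.73 ± 0.756 in CON:PLX, -2.43 ± 0.725 in MIA:CON and -3.70 ± 0.887 in CON:CON, with adjusted p of 0.000207, 0.000309, 0.0136 and 0.00269 in the same order. Leaving out replicate 6 moved the MIA:CON change to -3.86 ± 0.652, and leaving out CON_CON_LPS replicate 2 moved the CON:CON change to -4.41. When the MIA:CON groups were fitted alone, with no other group, the call was lost (adjusted p = 0.0592). Gpr34 lies within Cask, a gene on the opposite strand with which it shares 0 exonic bases. The kit keeps no strand, so intronic Cask reads there cannot be told from Gpr34 reads. Cask itself had 29.1 to 75.4 CPM in LPS libraries and 68.2 to 89.3 CPM in saline libraries.

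Siglech (chr7:55768178-55778925, plus strand), of the family of sialic acid binding lectins, fell in every arm, with no overlap of LPS and saline libraries. After LPS with PLX and prenatal MIA it had a lowest value of 189, a median of 225 and a highest value of 304 CPM in the MIA_PLX_LPS libraries, against 931, 1071 and 1254 CPM in the MIA_PLX_SAL libraries. Siglech had a lowest value of 132, a median of 206 and a highest value of 281 CPM in the CON_PLX_LPS libraries, against 1001, 1072, 1081 and 1109.9 CPM in the CON_PLX_SAL libraries. No LPS library of these arms exceeded 304 CPM. In MIA:CON, Siglech had a lowest value of 206, a median of 275 and a highest value of 782 CPM in the MIA_CON_LPS libraries, against 989.8, 1101, 1112 and 1132 CPM in the MIA_CON_SAL libraries. CON:CON mice gave 157, 249.9, 285 and 312 CPM in the CON_CON_LPS libraries, against 961, 1068, 1078 and 1090.3 CPM in the CON_CON_SAL libraries. All 22 LPS libraries lay below all 15 saline libraries, and without replicate 6, which is the 782 CPM value, the highest LPS library had 317 CPM. Changes were -2.03 ± 0.250 (log2, SE) in MIA:PLX, -2.16 ± 0.236 in CON:PLX, -1.48 ± 0.234 in MIA:CON and -1.96 ± 0.269 in CON:CON, with a largest adjusted p of 1.94e-05. Without replicate 6 the MIA:CON change was -1.83 ± 0.193. Markers of plasmacytoid dendritic cells, in which Siglech is also known, were low. The 5 on the list summed to 0.823 to 25.7 CPM in LPS libraries and 10.7 to 22.7 CPM in saline libraries. Klra17 was at 0 in all saline groups and Ly6d at 0 in 3 of the 4. Averaged over the arms, Pacsin1 (log2 change -2.01 ± 0.307, SE) and Ccr9 (-0.78 ± 0.276) fell and Cox6a2 (1.95 ± 0.519) rose, the 3 of the list that were tested, and their part in the Siglech change was not tested.

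Fcrls (chr3:87250758-87263738, minus strand), the Fc receptor-like scavenger receptor, kept the largest share of its saline level among the 6 genes called in single arms. Libraries of MIA:PLX gave a lowest value of 402, a median of 504 and a highest value of 913 CPM in the MIA_PLX_LPS libraries, against 1221, 1240.2 and 1325 CPM in the MIA_PLX_SAL libraries. Fcrls had a lowest value of 443, a median of 509 and a highest value of 788 CPM in the CON_PLX_LPS libraries, against 1208, 1226, 1356 and 1419.6 CPM in the CON_PLX_SAL libraries. One library in each of these LPS groups stood above the other 5, at 913 CPM in MIA_PLX_LPS replicate 5 and 788 CPM in CON_PLX_LPS replicate 2. In MIA:CON, Fcrls had a lowest value of 473, a median of 624 and a highest value of 1059 CPM in the MIA_CON_LPS libraries, against 985, 1153, 1223 and 1286 CPM in the MIA_CON_SAL libraries. CON:CON gave 349, 421, 616 and 635 CPM in the CON_CON_LPS libraries, against 1183, 1185, 1222 and 1366 CPM in the CON_CON_SAL libraries. MIA_CON_LPS replicate 6, the 1059 CPM library, was the single LPS library inside the saline range. The log2 change was -1.0 ± 0.248 (SE) in MIA:PLX, -1.0 ± 0.230 in CON:PLX, -0.61 ± 0.230 in MIA:CON and -1.15 ± 0.258 in CON:CON. In MIA:CON the call was at the threshold (adjusted p = 0.0486) and was lost in 26 of the 37 fits that leave out 1 library (changes of -0.64 to -0.51). It passed without replicate 6, at -0.74 ± 0.233 (adjusted p = 0.0151).

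Tmem119 (chr5:113793729-113800516, minus strand), the membrane protein used as a microglia marker, spread widely among LPS libraries and little among saline libraries. Its transcript had a lowest value of 157, a median of 215 and a highest value of 292 CPM in the MIA_PLX_LPS libraries, against 945, 945 and 945 CPM in the MIA_PLX_SAL libraries. Tmem119 had a lowest value of 64.4, a median of 259.5 and a highest value of 484 CPM in the CON_PLX_LPS libraries, against 805, 924, 966 and 1014 CPM in the CON_PLX_SAL libraries. The 3 MIA_PLX_SAL libraries had the same value to the CPM. In MIA:CON, Tmem119 had a lowest value of 78.4, a median of 301 and a highest value of 636 CPM in the MIA_CON_LPS libraries, against 776, 868, 888 and 889 CPM in the MIA_CON_SAL libraries. CON:CON gave 81.2, 223, 253 and 461 CPM in the CON_CON_LPS libraries, against 836, 877, 944 and 1005 CPM in the CON_CON_SAL libraries. Every LPS library lay below every saline library, with 636 CPM in MIA_CON_LPS replicate 6 as the highest and 484 CPM as the highest of the rest. Log2 changes were -1.93 ± 0.443 (SE) in MIA:PLX, -1.52 ± 0.414 in CON:PLX, -1.23 ± 0.414 in MIA:CON and -1.64 ± 0.471 in CON:CON, with adjusted p of 0.00164, 0.00501, 0.0279 and 0.0104 in that order. In MIA:CON the call was lost without any 1 of 6 libraries, MIA_CON_LPS replicates 1, 4 and 5 and MIA_CON_SAL replicates 1, 2 and 4 (changes of -1.23 to -1.03), and it was held without replicate 6 (-1.47 ± 0.425, adjusted p = 0.00842).

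Slc2a5 (chr4:150119283-150144169, plus strand), the fructose transporter, was the least abundant of the 7 genes and fell in every arm. In MIA:PLX it had a lowest value of 3.69, a median of 4.90 and a highest value of 14.4 CPM in the MIA_PLX_LPS libraries, against 163, 179 and 198 CPM in the MIA_PLX_SAL libraries. Slc2a5 had a lowest value of 0.522, a median of 5.68 and a highest value of 23.9 CPM in the CON_PLX_LPS libraries, against 159.7, 166, 185 and 189 CPM in the CON_PLX_SAL libraries. The lowest value, in CON_PLX_LPS replicate 1, rests on 3 counts (exact 95% Poisson interval 0.108 to 1.53 CPM, counting error only). In MIA:CON, Slc2a5 had a lowest value of 4.34, a median of 10.8 and a highest value of 107 CPM in the MIA_CON_LPS libraries, against 144, 149, 159 and 168 CPM in the MIA_CON_SAL libraries. CON:CON gave 3.17, 7.10, 9.64 and 27.5 CPM in the CON_CON_LPS libraries, against 176, 179, 183 and 213 CPM in the CON_CON_SAL libraries. LPS and saline libraries did not overlap, and apart from the 107 CPM of MIA_CON_LPS replicate 6 no LPS library exceeded 27.5 CPM. The log2 change was -4.52 ± 0.751 (SE) in MIA:PLX, -4.18 ± 0.693 in CON:PLX, -2.42 ± 0.646 in MIA:CON and -3.72 ± 0.790 in CON:CON, with a largest adjusted p of 0.00635. Single libraries moved these folds by more than 1.5 times on the linear scale. Without replicate 6 the MIA:CON change was -3.67 ± 0.595, without CON_PLX_LPS replicate 2 the CON:PLX change was -5.04, and without CON_CON_LPS replicate 2 the CON:CON change was -4.72.

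Olfml3 (chr3:103722222-103738001, minus strand), the secreted olfactomedin-like glycoprotein, fell in every arm, with single high libraries in 3 of the 4 LPS groups. The MIA:PLX arm gave a lowest value of 84.1, a median of 124 and a highest value of 172 CPM in the MIA_PLX_LPS libraries, against 1156, 1181 and 1366 CPM in the MIA_PLX_SAL libraries. Olfml3 had a lowest value of 78.7, a median of 143 and a highest value of 642 CPM in the CON_PLX_LPS libraries, against 1106, 1158, 1269 and 1275 CPM in the CON_PLX_SAL libraries. In CON_PLX_LPS the highest library was replicate 2, and the next had 187 CPM. In MIA:CON, Olfml3 had a lowest value of 128, a median of 245 and a highest value of 792 CPM in the MIA_CON_LPS libraries, against 1049.5, 1062, 1094 and 1125 CPM in the MIA_CON_SAL libraries. CON:CON gave 127, 144, 172 and 541 CPM in the CON_CON_LPS libraries, against 1153, 1196, 1301 and 1359 CPM in the CON_CON_SAL libraries. CON_CON_LPS replicate 2, at 541 CPM, stood above the other 3 libraries of its group, and all 22 LPS libraries lay below all 15 saline libraries. Log2 changes were -3.14 ± 0.520 (SE) in MIA:PLX, -2.18 ± 0.484 in CON:PLX, -1.60 ± 0.481 in MIA:CON and -2.11 ± 0.554 in CON:CON, with a largest adjusted p of 0.0138. Leaving out CON_PLX_LPS replicate 2 gave -3.00 in CON:PLX, leaving out CON_CON_LPS replicate 2 gave -2.98 in CON:CON, and leaving out MIA_CON_LPS replicate 6 gave -2.03 ± 0.479 in MIA:CON.

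Sparc (chr11:55394500-55423183, minus strand), the secreted collagen-binding protein, was the most abundant of the 7 genes and differed least between LPS and saline. Its level in MIA:PLX had a lowest value of 1905, a median of 2335 and a highest value of 2472 CPM in the MIA_PLX_LPS libraries, against 2757, 2837 and 3234 CPM in the MIA_PLX_SAL libraries. Sparc had a lowest value of 1605, a median of 1902 and a highest value of 2204 CPM in the CON_PLX_LPS libraries, against 2767, 2804, 2808 and 2849 CPM in the CON_PLX_SAL libraries. The highest LPS library of the PLX arms lay below their lowest saline library. In MIA:CON, Sparc had a lowest value of 1714, a median of 2103 and a highest value of 2579 CPM in the MIA_CON_LPS libraries, against 2735, 2978, 3107 and 3177 CPM in the MIA_CON_SAL libraries. CON:CON gave 1881, 2040.2, 2071 and 2108 CPM in the CON_CON_LPS libraries, against 2309, 2903, 2911 and 3125 CPM in the CON_CON_SAL libraries. In these CPM, which are scaled by library totals without TMM, LPS and saline libraries did not overlap within any of the 4 arms. No share of all genes is given for separation within arms, so it is not read as particular to Sparc. Over all arms, 17 of the 22 LPS libraries lay below all 15 saline libraries. The log2 changes of -0.21 ± 0.171 (SE) in MIA:PLX, -0.32 ± 0.156 in CON:PLX, -0.30 ± 0.156 in MIA:CON and -0.34 ± 0.173 in CON:CON did not pass the threshold in any arm (adjusted p of 0.428, 0.124, 0.149 and 0.157 in that order), and the change averaged over the arms did (-0.29 ± 0.0821, adjusted p = 0.00283). Scaling by library totals in place of TMM gave -0.38, -0.56, -0.51 and -0.47 in the same order of arms, all past the threshold. That scaling shifted the median of all genes tested to -0.10, -0.21, -0.17 and -0.04. Endothelial and mural markers, from cells that also make Sparc, were low: the 8 on the list summed to 6.78 to 34.6 CPM in LPS libraries and 24.7 to 54.3 CPM in saline libraries. Kcnj8 was at 0 in 6 of the 8 groups and Cldn5 in CON_CON_LPS. Pecam1 (log2 change -1.26 ± 0.166, averaged over the arms) and Rgs5 (-0.87 ± 0.355) fell among the 4 tested, and their part in the Sparc change was not tested.

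**Figure D2:**
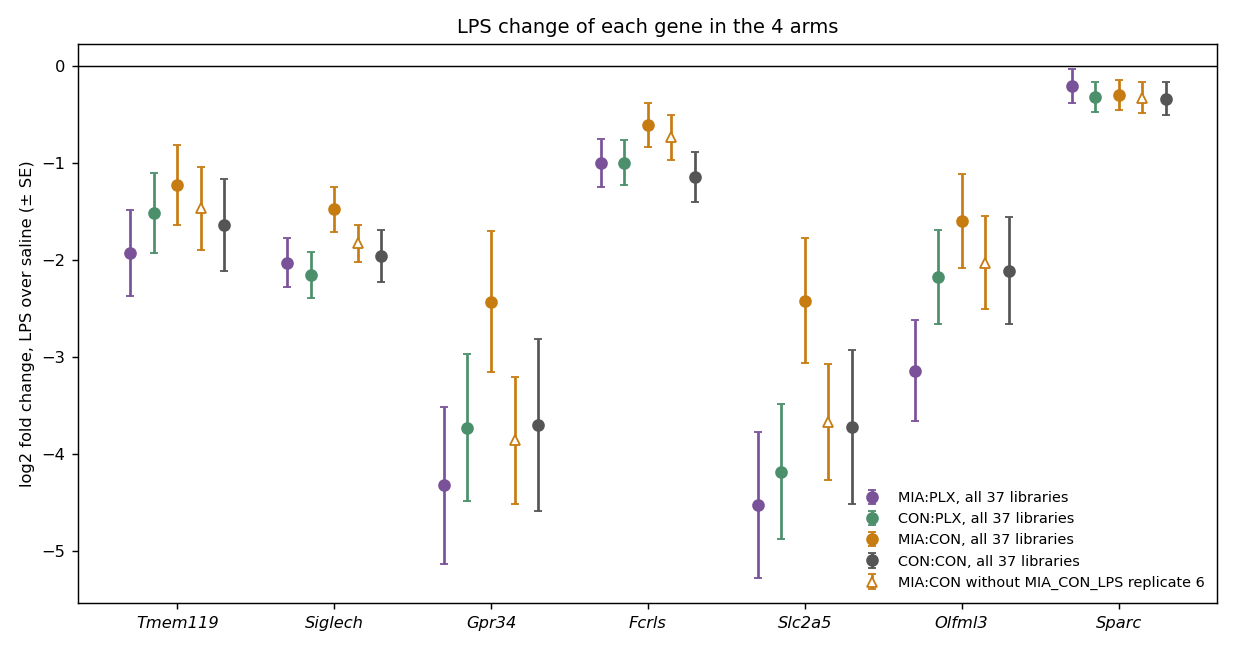
Log2 fold change of LPS over saline with its SE (y axis) for each gene (x axis) in the 4 arms, from the fit to all 37 libraries (filled circles) and, for MIA:CON, without MIA_CON_LPS replicate 6 (open triangles). Gpr34 and Slc2a5 show the lowest values, down to -4.32 and -4.52 in MIA:PLX, and Sparc lies between -0.34 and -0.21.

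Averaged over the 4 arms, the log2 changes were -3.71 ± 0.366 for Slc2a5, -3.55 ± 0.404 for Gpr34, -2.26 ± 0.257 for Olfml3, -1.91 ± 0.124 for Siglech, -1.58 ± 0.219 for Tmem119 and -0.94 ± 0.121 for Fcrls (SE). Of the neighbours in that order, Gpr34 and Slc2a5 lay within 1 SE of each other. Without MIA_CON_LPS replicate 6 the averaged changes of Slc2a5 and Gpr34 were -4.02 ± 0.304 and -3.90 ± 0.332, and all 7 genes were again called lower, against 26.6% of genes tested. Every LPS library lay below every saline library for 4 of the 7 genes, Tmem119, Siglech, Slc2a5 and Olfml3, which held for 4.14% of all genes tested. Without replicate 6 it held for 6 of the 7, Gpr34 and Fcrls added, against 5.39% of all genes tested. With CON_CON_LPS replicate 3 and MIA_PLX_SAL replicate 1 put back, only Siglech of the 7 was called lower in CON:CON, where CON_CON_LPS replicate 3 had 75.3% to 109% of the CON_CON_SAL mean.

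Levels can be compared between genes only per length. Per kilobase of the principal transcript, the order after LPS was Sparc at 904 ± 115 CPM (SD, n = 22), Fcrls at 252 ± 75.5, Siglech at 121 ± 60.1, Tmem119 at 120.3 ± 64.5, Olfml3 at 41.0 ± 35.1, Gpr34 at 27.2 ± 46.7 and Slc2a5 at 4.20 ± 6.95. In saline libraries it was Sparc at 1255 ± 98.9 CPM (SD, n = 15), Fcrls at 545 ± 45.8, Siglech at 501 ± 36.4, Tmem119 at 405 ± 30.7, Gpr34 at 305 ± 32.0, Olfml3 at 218 ± 18.6 and Slc2a5 at 55.1 ± 5.82. Gpr34 had a lower mean than Olfml3 after LPS, where their SDs overlap and MIA_CON_LPS replicate 6 is included, and stood above it in saline. The length used is that of the longest principal transcript, 5465 bases for Olfml3 and 2088 for Gpr34, and shorter ones were not tried. Siglech and Fcrls lay within 1 SD of each other in saline, and Siglech and Tmem119 after LPS. Over the union of all exons in place of the principal transcript, Siglech had 76.7 CPM per kilobase after LPS and 316 in saline, below the 116 and 392 of Tmem119, so the order of this pair depends on the transcript assumed.

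Among the saline groups the 7 genes were close together. For each gene the 4 saline groups, ordered by mean, overlapped with their neighbours in the range of their libraries, and so did the 4 LPS groups. Log2 differences between saline groups lay between 0.03 and 0.18 for MIA_PLX_SAL over CON_PLX_SAL and between -0.21 and 0.23 for MIA_CON_SAL over CON_CON_SAL. They lay between -0.03 and 0.22 for MIA_PLX_SAL over MIA_CON_SAL and between -0.10 and 0.16 for CON_PLX_SAL over CON_CON_SAL. None of the 7 was called by edgeR or limma voom, nor any of the 5 tested by DESeq2, at a share of 0% of all genes called by edgeR, and none had an unadjusted p under 0.05 in these 4 comparisons. SEs of single genes ran up to 0.851, so differences of the size seen here could not be told from 0.

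LPS libraries of the same group differed from each other, and not in the same way for all 7 genes. Tmem119 and Gpr34 were lowest together in 1 library of each LPS group: MIA_PLX_LPS replicate 5, CON_PLX_LPS replicate 1, MIA_CON_LPS replicate 1 and CON_CON_LPS replicate 1. Siglech and Fcrls were not lowest in any of these 4 libraries. In MIA_PLX_LPS replicate 5, Siglech (304 CPM), Slc2a5 (14.4 CPM), Olfml3 (172 CPM) and Fcrls (913 CPM) were the highest of their group, while Tmem119 (157 CPM) and Gpr34 (12.3 CPM) were its lowest. In CON_CON_LPS replicate 1, Siglech had 29.7% of the CON_CON_SAL mean and Gpr34 1.20%. CON_PLX_LPS replicate 1 had 21.4% for Siglech and 0.541% for Gpr34 of the CON_PLX_SAL mean. At the other end, CON_PLX_LPS replicate 2 was highest of its group for 6 of the 7 genes and CON_CON_LPS replicate 2 for 5. Olfml3 in these libraries had 53.4% and 43.2% of the saline mean of the arm, and Sparc 58.7% and 66.9%, the lowest of the group for Sparc in CON_CON_LPS replicate 2. These are single libraries, described with no test.

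**Figure D3:**
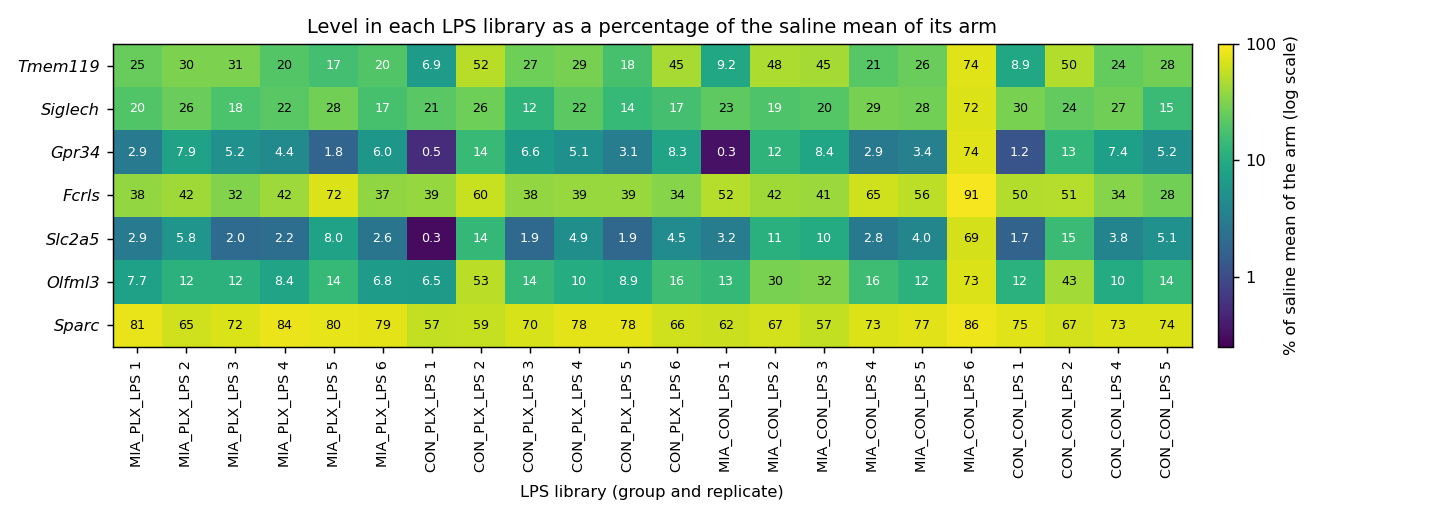
CPM in each LPS library (columns, by group and replicate) as a percentage of the saline mean of the same arm, for each gene (rows), on a log color scale. MIA_CON_LPS replicate 6 lies between 68.7% and 91.1% for all 7 genes, and the lowest values are those of Slc2a5 (0.298%) and Gpr34 (0.541%) in CON_PLX_LPS replicate 1 and of Gpr34 (0.337%) in MIA_CON_LPS replicate 1.

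Whether prenatal MIA or PLX altered the LPS change was asked by comparing LPS groups and by interaction terms. Without PLX, mean levels after LPS were higher in MIA_CON_LPS than in CON_CON_LPS for all 7 genes, but none passed the threshold by edgeR or limma voom, nor any of the 5 tested by DESeq2, as for 0% of all genes tested by edgeR. Gpr34 averaged 109.6 ± 184 CPM (SD, n = 6) in MIA_CON_LPS and 38.9 ± 28.8 CPM (SD, n = 4) in CON_CON_LPS, a log2 difference of 1.50 ± 0.776 (SE). Slc2a5 averaged 25.8 ± 39.9 CPM in MIA_CON_LPS and 11.9 ± 10.8 CPM in CON_CON_LPS, a difference of 1.09 ± 0.706. These SDs in MIA_CON_LPS exceed the means. Siglech (0.60 ± 0.241) and Fcrls (0.52 ± 0.236) had an unadjusted p under 0.05, with adjusted p of 0.441 and 0.497 by edgeR. Without replicate 6 the MIA_CON_LPS mean of Gpr34 was 35.5 ± 31.4 CPM (SD, n = 5) and the difference 0.07 ± 0.624. For Slc2a5 these values were 9.66 ± 6.28 CPM and -0.16 ± 0.609. The difference was 0.25 ± 0.192 for Siglech and 0.39 ± 0.236 for Fcrls, at unadjusted p of 0.198 and 0.104 by edgeR. Olfml3 then averaged 221 CPM in MIA_CON_LPS, against 246 CPM in CON_CON_LPS, and Sparc 2015 CPM, against 2025 CPM. Without replicate 6, log2 differences were positive for 5 of the 7 genes, so the shared direction rested on this library. With PLX, MIA_PLX_LPS and CON_PLX_LPS differed by -0.85 (Olfml3) to 0.25 (Sparc), none of them called or at an unadjusted p under 0.05, where edgeR called 0.0149% of all genes higher.

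In prenatal MIA, PLX libraries had lower means after LPS for 6 of the 7 genes. Olfml3 averaged 124 ± 35.1 CPM in MIA_PLX_LPS and 316 ± 251 CPM in MIA_CON_LPS (SD, n = 6 each), a log2 difference of -1.34 ± 0.447 (SE). The differences were -1.88 ± 0.680 for Slc2a5, -1.78 ± 0.691 for Gpr34 and -0.55 ± 0.213 for Siglech. These 4 genes had an unadjusted p under 0.05, and none passed the threshold by edgeR or limma voom, nor Olfml3 and Siglech by DESeq2, which gave no p for the others (adjusted p of 0.369 to 0.445 by edgeR), at a share of 0% of all genes called. Without replicate 6, Olfml3 was left at -0.92 ± 0.430 (unadjusted p = 0.0413, adjusted p = 0.476), Slc2a5 at -0.63 ± 0.600, Gpr34 at -0.35 ± 0.574 and Siglech at -0.20 ± 0.173. In prenatal CON the same comparison, CON_PLX_LPS over CON_CON_LPS, gave -0.56 (Slc2a5) to 0.22 (Fcrls), none of them called or at an unadjusted p under 0.05, where edgeR called 0.00745% of all genes lower. These comparisons share libraries, since MIA_CON_LPS enters both the MIA and the PLX comparison.

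**Figure D4:**
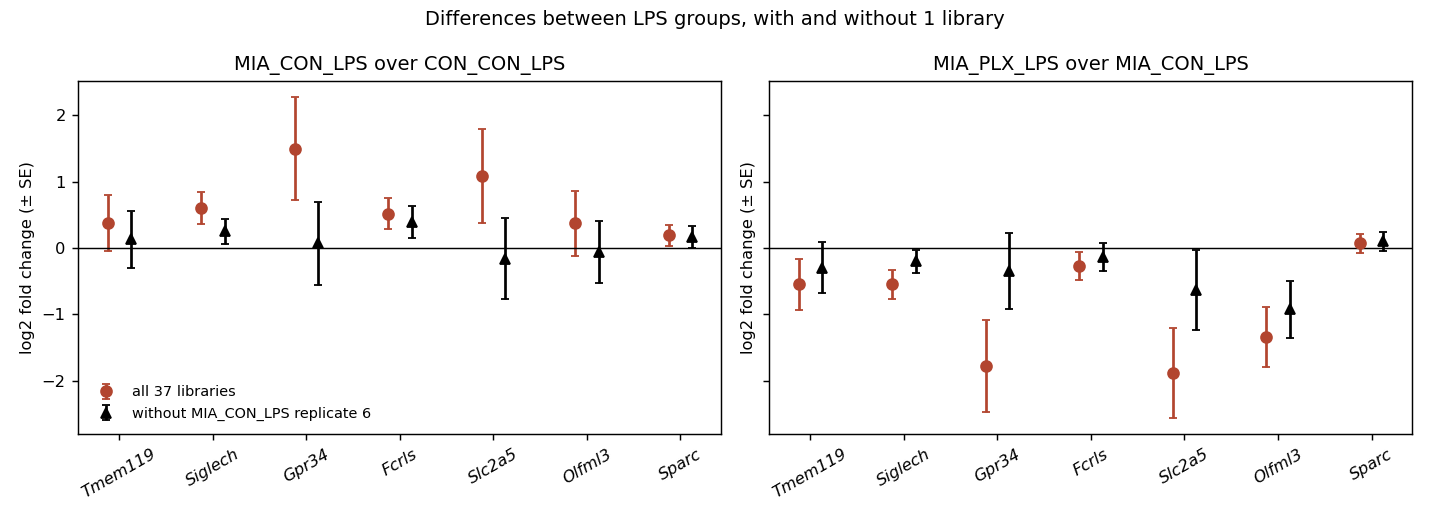
Log2 fold change with its SE (y axis) for each gene (x axis) between LPS groups, MIA_CON_LPS over CON_CON_LPS on the left and MIA_PLX_LPS over MIA_CON_LPS on the right. Circles are from all 37 libraries and triangles leave out MIA_CON_LPS replicate 6, without which Gpr34 lies at 0.07 on the left, against 1.50 with it, and at -0.35 on the right, against -1.78 with it.

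The interaction terms gave no call for any of the 7 genes. A joint test of whether the LPS change differed among the 4 arms gave an adjusted p of 1 for all 7 genes and a smallest unadjusted p of 0.174, for Slc2a5. In the MIA by LPS term without PLX, differences of LPS changes lay between 0.03 ± 0.233 (Sparc) and 1.30 ± 0.984 (Slc2a5), and without replicate 6 between -0.17 ± 0.886 (Gpr34) and 0.41 ± 0.340 (Fcrls). The PLX by LPS term in prenatal MIA was -2.10 ± 1.0 for Slc2a5 and -1.54 ± 0.721 for Olfml3, at unadjusted p of 0.0453 and 0.0408 and an adjusted p of 1. Without replicate 6 these terms were -0.85 ± 0.847 and -1.11 ± 0.684, at unadjusted p of 0.326 and 0.116. The MIA by LPS term with PLX lay between -0.96 (Olfml3) and 0.12 (Siglech), and the PLX by LPS term in prenatal CON between -0.46 (Slc2a5) and 0.15 (Fcrls). Limma voom called none of the 7 in any interaction either, nor DESeq2 any of the 5 it tested, and edgeR called 0% of all genes tested in each of them. With SEs of up to 1.09 for Gpr34, differences of this size could not be detected here.

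A list of 20 other homeostatic genes of microglia changed in the same direction. In MIA:PLX 14 of the 20 were called lower, in CON:PLX 11, in MIA:CON 8 and in CON:CON 11, against 10.4%, 14.0%, 10.9% and 9.86% of all genes tested in the same order of arms. The MIA:CON count includes MIA_CON_LPS replicate 6. This library had 1822 CPM of P2ry12, against 221 to 364 CPM in the rest of its group. No count of this list is given without it, so the lower count is not read as a weaker change in MIA:CON. Averaged over the arms 18 of 20 were called lower, against 26.0% of all genes tested, with a median log2 change of -1.21, against 0.03 over all genes tested. P2ry12, a purinergic receptor, changed by -2.90 ± 0.174 (SE), Golm1, a Golgi protein, by -1.25 ± 0.102, Tgfbr1, a receptor of transforming growth factor beta, by -1.24 ± 0.105 and Mef2c, a transcription factor, by -1.19 ± 0.105. The P2ry12 change lay between those of Olfml3 and Gpr34, and the other 3 called here between those of Tmem119 and Fcrls. P2RY12 protein was a sort marker, so cells without it were not collected.

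Markers of other cells moved with LPS in part. The 6 monocyte markers summed to 9.79 to 564 CPM in LPS libraries and 2.74 to 19.0 CPM in saline libraries. Of 5 tested, 4 rose averaged over the arms, as did 30.3% of all genes tested, among them Fn1 (log2 change 6.28 ± 0.497, SE), a matrix protein, and Plac8 (3.76 ± 0.483), and Ccr2, the chemokine receptor of monocytes, fell (-1.41 ± 0.277). The 6 neutrophil markers summed to 3.32 to 124 CPM after LPS and 0 to 74.1 CPM in saline. All 5 tested rose, including Cxcr2 (5.10 ± 0.674) and S100a8 (3.60 ± 0.694). Border-associated macrophage markers summed to 5.44 to 158 CPM after LPS and 31.2 to 100.2 CPM in saline, astrocyte markers to 19.3 to 220.0 and 41.6 to 224 CPM, oligodendrocyte lineage markers to 20.4 to 79.9 and 38.6 to 84.5 CPM, and neuron markers to 4.06 to 43.8 and 14.2 to 38.5 CPM. Averaged over the arms, the macrophage marker Lyve1 (log2 change 1.61 ± 0.662, SE) and the astrocyte marker Gfap (1.82 ± 0.643) were called higher. No other marker tested from these lists was called. Of the 11 immediate early and dissociation stress genes, only Dusp1, Ier2 and Nr4a1 were called higher averaged over the arms (1.89 ± 0.228, 0.88 ± 0.223 and 1.10 ± 0.449). The share of all genes tested called higher was 30.3%. Fos (0.62 ± 0.347) and Egr1 (0.13 ± 0.281) were among those not called. This list summed to 1627 to 10425 CPM after LPS and 2506 to 9341 CPM in saline. The 6 microglia markers summed to 4762 to 12881 CPM after LPS and 15181 to 17412 CPM in saline. The highest LPS sum was in MIA_CON_LPS, which includes replicate 6, and the other LPS groups reached at most 8676 CPM. The part of these cells and of stress in the changes of the 7 genes was not tested.

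Profiles over the 8 group means were compared by the root mean square difference of log2 CPM after each gene was centred on its own mean. Among the 7 genes the most alike were Tmem119 and Siglech, with a difference of 0.16, and Gpr34 and Slc2a5, with 0.28. The least alike were Slc2a5 and Sparc, with 1.98. Of 6336 other genes, those nearest to Tmem119 were Mgll, Gas6 and Ppfia4 (0.08 to 0.09), and nearest to Siglech Rtn4rl1, Gabbr1 and Arap3 (0.09 to 0.11). Npnt, Tspan18 and Upk1b were the nearest 3 to both Gpr34 (0.23 to 0.26) and Slc2a5 (0.13 to 0.31). Olfml3 was nearest to Glis3, Plxdc2 and Adgrg1 (0.07 to 0.19). Fcrls was nearest to Itm2b, Calm2 and Bicral (0.06 to 0.07), and Sparc to Dctn6, Taf4 and Cir1 (0.04 to 0.05). All of these rest on 8 group means that share libraries, and carry no test.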

How the data were processed

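The authors deposited estimated counts per gene for 39 libraries, 14.71% of whose nonzero values are not whole, and they were rounded to whole numbers here. Per the submitters' processing notes, the tools were STAR, RSEM and DESeq2, with no version or role given. The genome build is not given in the sources used here. Per the labels, strand is not kept. Whether replicates came from separate mice is not stated, so p-values cover only the spread between these libraries, possibly technical. Symbols and coordinates are from GENCODE M21 (GRCm38), which gave a symbol to 55141 of 55487 identifiers. CPM are counts scaled to the same total in each library.

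Genes were kept by filterByExpr (minimum count 10, minimum total 15), leaving 13420. One edgeR 4.0.16 quasi-likelihood model with TMM and a mean per group was fitted to 37 libraries (R 4.3.3), with 18 two-sided contrasts, each adjusted by Benjamini-Hochberg over all genes and called at 0.05. SE is the log2 change over the square root of F. The scripts were tested on simulated data. Alternatives were other size factors, DESeq2 1.42.0, limma 3.58.1 voom, no filter, fewer groups, a replicate block, both marked libraries included, and each library left out. Genes named beside the 7 were, from each list, up to 4 with the smallest p and 1 with the largest, and the 3 nearest in profile among genes of average log2 CPM of at least 4. One gene that this rule names is not reported here. The 7 genes and the lists were chosen with earlier results of these data known.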

Additional observations from a re-analysis of the deposited data

Results flagged for a closer look

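In 49 sets of 4 to 6 libraries (a gene in a group), 10 held a library whose gap to the others was large for the range of its set, where chance alone marks about 1 set in 20. MIA_CON_LPS replicate 6 was the high library in 3 sets besides Olfml3: it had 782 CPM of Siglech, against 206 to 317 CPM in the rest of its group, 480.1 CPM of Gpr34, against 2.18 to 80.3 CPM, and 107 CPM of Slc2a5, against 4.34 to 17.4 CPM. Its Olfml3 level was 792 CPM, against 128 to 343 CPM in the other 5 libraries. CON_PLX_LPS replicate 2 was high for Slc2a5 (23.9 CPM, against 0.522 to 8.58 CPM), Olfml3 (642 CPM, against 78.7 to 187 CPM) and Fcrls (788 CPM, against 443 to 514 CPM). CON_CON_LPS replicate 2 had 541 CPM of Olfml3, against 127 to 172 CPM in the other 3 libraries. MIA_PLX_LPS replicate 5 had 913 CPM of Fcrls, against 402 to 535 CPM in the other 5. CON_CON_SAL replicate 1 was low for Siglech, with 961 CPM, against 1068 to 1090.3 CPM in the other 3.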

How the results depend on the processing

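The count of the 7 genes called lower after LPS stayed within 1.5 times of the reported one under every setting tried except 1: with both libraries whose titles ask for exclusion put back, 1 gene (Siglech) was called lower in CON:CON, against 6. What a replicate number shares is not in the labels, and same-numbered libraries did not all deviate together: the correlation of their deviations had a median of 0.02 and ran from -0.25 to 0.66 over 107 pairs, and 15 of 37 libraries correlated best with one of their own number, a hint from the data and not the design. A replicate block left the 6 calls of each arm and added Sparc in CON:PLX (-0.38, adjusted p = 0.0469). It moved the MIA:CON changes of Gpr34 to -3.74, against -2.43 without the block, and of Slc2a5 to -3.39, against -2.42. Replicate numbers 5 and 6 occur only in LPS groups, so the block terms for these numbers hold no saline library. Leaving out MIA_CON_LPS replicate 6 without a block gave -3.86 for Gpr34 and -3.67 for Slc2a5.

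No comparison of MIA or PLX gained a call under any setting, but signs of uncalled differences turned. With both marked libraries put back, MIA_CON_LPS over CON_CON_LPS was -0.19 for Tmem119, -0.09 for Siglech, -0.51 for Gpr34, -0.75 for Slc2a5, -0.37 for Olfml3 and -0.03 for Sparc, and the MIA by LPS term without PLX was -0.16 for Tmem119, -0.21 for Siglech, -0.74 for Gpr34, -0.54 for Slc2a5, -0.23 for Olfml3 and -0.19 for Sparc. CON_PLX_LPS over CON_CON_LPS was then -0.43 for Tmem119, -1.88 for Gpr34, -0.23 for Fcrls and -0.21 for Sparc, against 0.14, 0.13, 0.22 and 0.02 without them, and -2.40 for Slc2a5 and -0.86 for Siglech (unadjusted p of 0.00446 and 0.00652, adjusted p of 0.338 and 0.355), against -0.56 and -0.17. The MIA by LPS term without PLX for Sparc was also -0.03 with library totals only, -0.07 with voom and -0.01 with no filter on low counts. Over the fits that leave out 1 library it ranged from -0.17 to 1.98 for Gpr34 and from -0.08 to 0.15 for Sparc. MIA_CON_LPS over CON_CON_LPS ranged from -0.16 to 2.10 for Slc2a5 and from -0.06 to 1.24 for Olfml3, and MIA_PLX_LPS over MIA_CON_LPS from -0.01 to 0.17 for Sparc. The cause was not tested, beyond the library that each of these fits adds or removes. Depth limits the lowest levels, where Slc2a5 and Gpr34 rest on as few as 3 and 4 counts.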

Other observations

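The 2 libraries left out of the comparisons both carried levels of the 7 genes near those of saline libraries. CON_CON_LPS replicate 3 had 756 CPM of Tmem119, 819.7 of Siglech, 535 of Gpr34, 149 of Slc2a5, 942 of Olfml3, 1177 of Fcrls and 3061 of Sparc. MIA_PLX_SAL replicate 1 had 715 CPM of Tmem119, 829 of Siglech, 507 of Gpr34, 134 of Slc2a5, 946 of Olfml3, 1152 of Fcrls and 2690.4 of Sparc. In both, Tmem119, Siglech and Olfml3 lay below all 15 saline libraries used, while Gpr34, Fcrls and Sparc lay within their range. None of the 14 values exceeded the highest saline library. MIA_CON_LPS replicate 6, which is used in the comparisons, had 636 CPM of Tmem119, 782 of Siglech, 480.1 of Gpr34, 107 of Slc2a5, 792 of Olfml3, 1059 of Fcrls and 2579 of Sparc. The titles give no reason for the exclusions.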
